A study of Mus musculus with 5 samples.

Results

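The 10 genes described here make, restrain and break down the polyamines putrescine, spermidine and spermine. They are Odc1, Amd1, Srm, Sms, Oaz1, Oaz2, Azin1, Sat1, Paox and Smox. They were chosen by gene symbol, and all 10 were found among 51912 genes listed, and all 10 were among the 18590 genes that passed the filter on low counts. Total RNA of the dorsolateral prostate was sequenced from male mice labelled 3 months old. The 3 control mice carried Ghrflox/flox alleles, in which the growth hormone receptor gene Ghr is flanked by loxP sites, and no Cre. The 2 mice labelled Ghr deletion were Ghrflox/flox;ROSA26Cre-ERT2+/0, which adds a tamoxifen-activated Cre recombinase from ROSA26, a locus active in most tissues, so the recombinase is not limited to prostate cells. Both groups received tamoxifen at 250 mg/kg on each of 5 days, and tissue was collected 1 month after the last injection.

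Polyamines are small positively charged molecules that bind nucleic acids and that growing cells need. Ornithine decarboxylase makes putrescine, S-adenosylmethionine decarboxylase supplies the group that is added to it, and the synthases add that group to give spermidine and then spermine. Antizymes bind ornithine decarboxylase and send it to the proteasome, and antizyme inhibitor takes the antizymes away from it. Acetylation and oxidation run the pathway backwards. The prostate is known for making and secreting large amounts of spermine into seminal fluid, and Odc1 is known there as a gene that responds to androgen.

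Sequences matter for how the counts of 2 pairs of genes are read. The antizymes are translated only when the ribosome shifts reading frame at a stop codon, a step that polyamines favour. The windows around that stop codon are shown because a count per gene sees the transcript and not this step. The capitals mark the stop codon, and 2 of the 30 bases differ between the genes.
Oaz1: tcggtggtgctccTGAtgtccctcacccac
Oaz2: tctgtggtgctccTGAtgcccctcacccac
On GRCm38 the windows lie in coding exons on the plus strand, at chr10:80828282-80828311 for Oaz1 and at chr9:65686259-65686288 for Oaz2. GENCODE release M21 models the shift by leaving out 1 base, at position 80828295 in 3 Oaz1 transcripts and at position 65686272 in 2 Oaz2 transcripts.

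Amd1 has a close relative, Amd2, which lies on the same chromosome in 1 exon where Amd1 has 8. The transcripts compared, 3204 and 3218 bases long, differ by 14 substitutions, of which 1 is in the coding sequence of 1002 bases. The stretch that holds it is shown because reads from elsewhere in the coding sequence cannot tell the genes apart. The capital marks that base.
Amd1: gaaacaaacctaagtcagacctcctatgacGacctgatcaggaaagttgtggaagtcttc
Amd2: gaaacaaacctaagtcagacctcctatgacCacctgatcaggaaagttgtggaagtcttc
The stretches are coding and lie on the minus strand, at chr10:40290157-40290216 in the seventh exon of the Amd1 transcript and at chr10:35710735-35710794 in Amd2.

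The libraries held 19517831 to 41553558 expected counts. Ghr was not below the control range in deletions 1 and 2, as the libraries labelled Ghr deletion are called below, with 21.5 and 10.2 CPM (counts scaled to a fixed total with TMM) against 10.1, 11.8 and 13.2 CPM in controls 1 to 3, and its log2 fold change was 0.44 (SE 0.35). These counts cover the whole gene, and which exon is flanked is not given in the labels, so they do not check the deletion. The luminal epithelial markers Krt8, Krt18, Epcam and Cdh1 were present in every library, with Krt18 at 224 to 291 CPM in the controls and at 291 and 263 CPM in deletions 1 and 2. Prostate markers were uneven: Hoxb13 was at 0 in control 3 and deletion 1, and Pbsn, which encodes the secreted protein probasin, had 11.1, 475 and 0.816 CPM across the controls, compared with 0.0454 and 8.76 CPM in deletions 1 and 2. Markers of the seminal vesicle made up 15.4% to 37.5% of control counts, against 14.6% and 22.2% of those in deletions 1 and 2, and 6 of the 8 were lower in both of the latter. Controls 1 and 2 stood apart from the other 3 libraries, lying above them in 6 of 8 seminal vesicle and 4 of 6 prostate secretion markers. In controls 1 and 2 the 6 prostate secretion markers summed to 3009 and 1673 CPM, of which Spink1 gave 2937 and 892. The sum was 37.0 in control 3 and 72.9 and 81.3 in the deletion-labelled libraries. Little of the sum of control 1 was thus left to the other markers. Tgm4, a prostate transglutaminase described below, divided the libraries otherwise. It had 17.9, 1604 and 2.93 CPM in controls 1 to 3, against 0.753 and 162 CPM in deletions 1 and 2. The part of these differences in any result below was not tested, and results that turn on controls 1 and 2 are given with and without them.

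No polyamine gene was called. Of the 10 genes, 0 passed the quasi-likelihood test of edgeR at a Benjamini-Hochberg adjusted p of 0.05, and the same test called 0 of 18590 genes, or 0%. DESeq2 also called 0 of the 10, where it called 81 genes in all (0.436%). At an unadjusted p under 0.05 by edgeR there was 1 of the 10, Smox, against 4.26% of all tested genes. The values of the groups did not overlap in 3 of the 10, Srm, Oaz1 and Smox, all lower in the deletion-labelled libraries, against 12.5% of all genes in that direction. None of the 10 was higher without overlap, against 10.8% of all genes. The median log2 fold change of the 10 was -0.17, and that of all tested genes was -0.01. A positive fold change is higher in the deletion-labelled libraries.

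**Figure D1:**
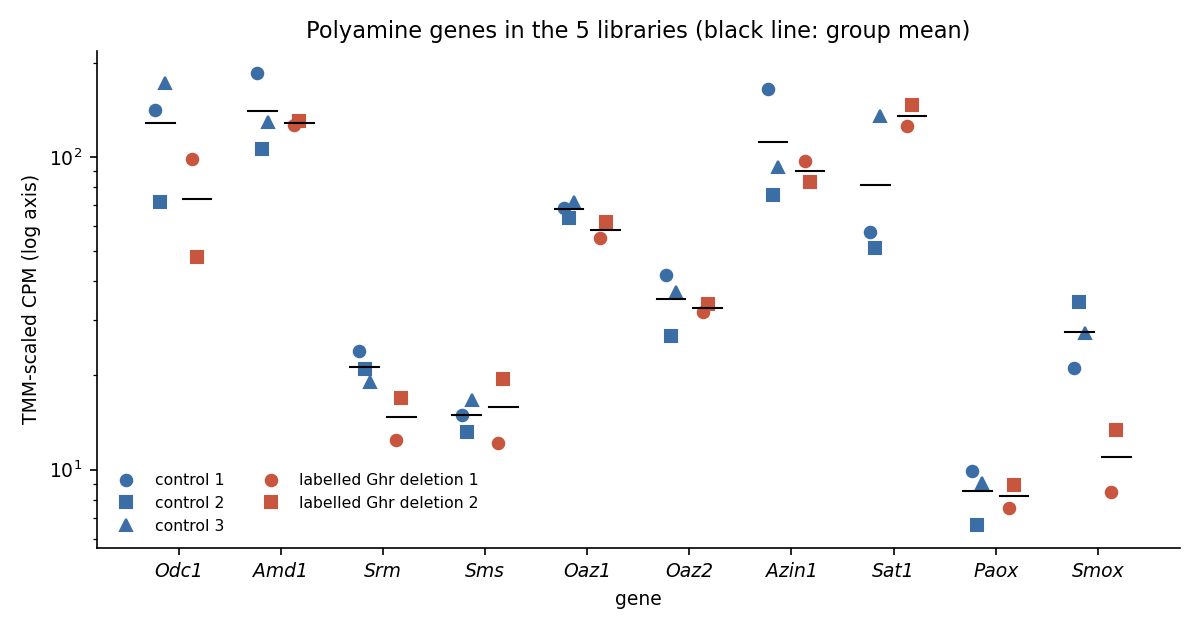
TMM-scaled CPM (vertical log axis) of the 10 polyamine genes in each library, with controls in blue, libraries labelled Ghr deletion in red, symbols for replicate numbers and black lines for group means. The groups do not overlap in Srm, Oaz1 and Smox, and control 3 lies with the deletion-labelled libraries in Sat1.

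Levels of different genes are compared on TPM, a transcript measure that is per length. Oaz1 and Sat1 held the first place between them, and the lowest places were fixed. Sms was the ninth and Paox the last of the 10 in every library, at 1.16 to 6.39 TPM and 0.37 to 3.13 TPM. Oaz1 ranked 1 or 2 in all 5 libraries, with 42.6, 16.1 and 64.6 TPM in the controls and 101 and 81.4 TPM in the deletion-labelled libraries. Odc1 ranked between 2 and 4, Amd1 3 or 4, Azin1 5 or 6, Oaz2 between 5 and 8, Srm between 6 and 8 and Smox 7 or 8, so neighbours in this order changed places between libraries. Sat1 ranked 4 and 2 in controls 1 and 2, and 1 in control 3 and in both deletion-labelled libraries.

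TPM placed most genes higher in the deletion-labelled libraries. Of the 10, 8 were higher there without overlap, all but Odc1 and Smox, but so were 78.5% of all tested genes. None was lower without overlap, against 0.307% of all tested genes. The median gene was higher by 0.87 on log2(TPM + 1), so TPM is used below only within a library.

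Within a library, the share of the summed TPM of the 10 genes removes that shift. Sat1 took 14.1%, 16.9% and 28.8% in controls 1 to 3 and 33.0% and 37.0% in the deletion-labelled libraries, or 19.9% ± 7.79 (SD, n = 3) against 35.0% ± 2.83 (SD, n = 2). Smox took 2.82%, 6.20% and 4.43% in the controls and 1.25% and 2.2% in the deletion-labelled libraries. These were the 2 of the 10 genes whose shares did not overlap between groups, Sat1 higher and Smox lower. By CPM, 10.8% of all tested genes were higher and 12.5% lower without overlap. No such rate was computed for shares. Oaz1 held a similar share throughout, from 22.5% to 28.5%, and Odc1 ranged from 7.51% in deletion 2 to 19.4% in control 3. An exact permutation test of 3 against 2 libraries reaches a two-sided p of 0.2 at the least, so the shares and ratios are given as values with no test.

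**Figure D2:**
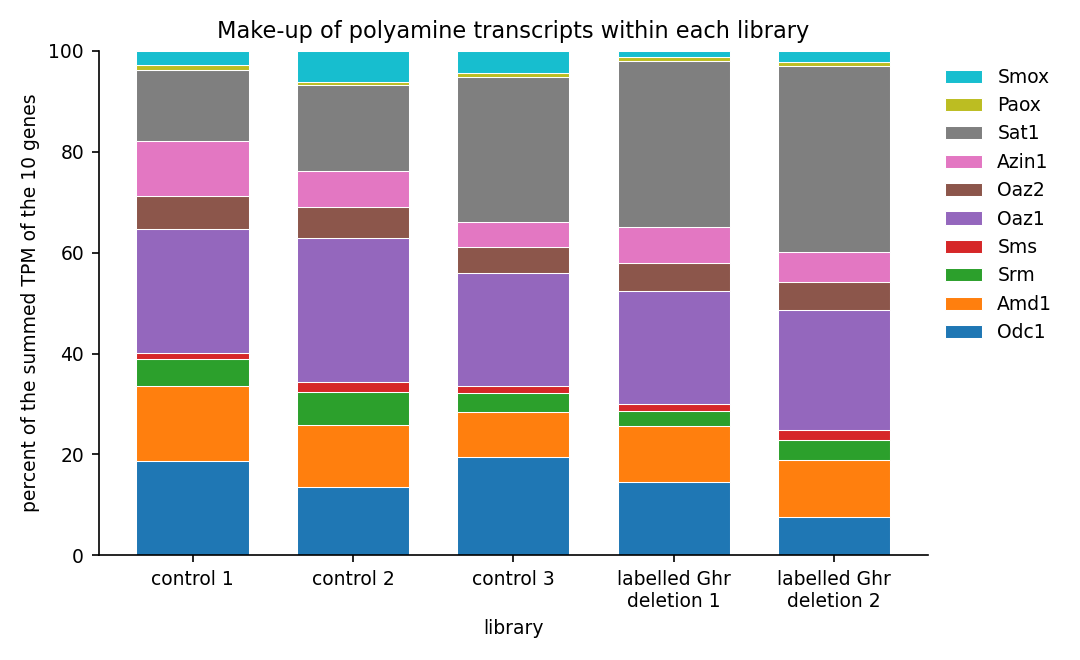
Percent of the summed TPM of the 10 polyamine genes taken by each gene (vertical axis, stacked to 100) in each of the 5 libraries. The share of Sat1 runs from 14.1% in control 1 to 37.0% in deletion 2, and that of Smox is lowest in the deletion-labelled libraries.

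Among the genes of synthesis, Odc1 (ENSMUSG00000011179, GRCm38 chromosome 12, 17544794 to 17551505, plus strand), which encodes ornithine decarboxylase, had 141, 71.8 and 172 CPM in controls 1 to 3. It had 98.3 and 47.9 CPM in the deletion-labelled libraries. Control 2 lay between the deletion-labelled libraries, so the groups overlapped. The means were 128 ± 51.4 CPM (SD, n = 3) and 73.1 ± 35.6 CPM (SD, n = 2), and the log2 fold change was -0.81 (SE 0.48, 95% interval from -1.99 to 0.37) at an edgeR adjusted p of 0.874. It was -0.39 without deletion 2 and -1.42 without deletion 1, so its size rested on single libraries. The highest and lowest controls differed 2.40-fold, a ratio larger than that of 70.3% of tested genes.

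Amd1 (ENSMUSG00000075232, chromosome 10, 40287458 to 40302186, minus strand), which encodes S-adenosylmethionine decarboxylase, had 185, 106 and 129 CPM in the control libraries, against 127 and 130 CPM in those labelled Ghr deletion. The deletion-labelled values fell inside the control range. Its log2 fold change was -0.13 (SE 0.28, 95% confidence interval -0.83 to 0.57), and without control 1, the highest library, it was 0.12. Amd2, the gene with the near-identical sequence printed above, had 6.29, 10.5 and 219 expected counts across the controls and 29.6 and 267 in deletions 1 and 2. Those counts were at most 5.18% of the counts given to Amd1 in the same library, and all listed near-identical copies of Amd1 together came to 1.52% to 6.88%. The Amd2 counts were high in control 3 and deletion 2 and low in the other 3 libraries, so the division of reads between Amd1 and Amd2 is uncertain. The percentages come from that same division and do not bound it. With the counts of copies added to Amd1, its log2 fold change was -0.10.

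Srm (ENSMUSG00000006442, chromosome 4, 148591503 to 148594993, plus strand) encodes spermidine synthase. It had 23.9, 21.0 and 19.0 CPM across the controls, compared with 12.4 and 17.0 CPM in deletions 1 and 2, so every deletion-labelled value was below every control. The means were 21.3 ± 2.48 CPM (SD, n = 3) and 14.7 ± 3.22 CPM (SD, n = 2). The log2 fold change was -0.53 (SE 0.23, 95% interval from -1.10 to 0.03) at an edgeR adjusted p of 0.874. Without deletion 1 it was -0.33. Srm was among the steadier of the 10 in the controls, with 1.26-fold between highest and lowest, where the median of all tested genes was 1.75-fold.

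Sms (ENSMUSG00000071708, chromosome X, 157443855 to 157492287, minus strand), the spermine synthase gene, had 14.9, 13.2 and 16.7 CPM in the control libraries, against 12.1 and 19.5 CPM in those labelled Ghr deletion. The deletion-labelled values lay on either side of all 3 controls, and the log2 fold change of 0.08 (SE 0.27) became -0.30 without deletion 2. The TPM of Srm relative to that of Sms was 4.29, 3.16 and 2.65 in the controls and 2.41 and 2.15 in the deletion-labelled libraries. That ratio was lower in both deletion-labelled libraries, with control 3 near them. The mean transcript length that RSEM gave Sms ranged 1.33-fold over the libraries, and its part in the ratio was not tested.

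The antizyme genes differed little. Oaz1 (ENSMUSG00000035242, chromosome 10, 80826656 to 80829290, plus strand) had 68.7, 63.6 and 71.4 CPM across the controls, compared with 54.9 and 61.7 CPM in deletions 1 and 2. The groups did not overlap, but the gap between control 2 and deletion 2 was small beside the spread within groups. Its log2 fold change was -0.22 (SE 0.18, 95% confidence interval -0.66 to 0.22), and its controls varied less than those of the other 9 genes, 1.12-fold from lowest to highest. The mean Oaz1 transcript length was also lower in both deletion-labelled libraries, 836 and 848 bases against 863 to 913, and with effective lengths as offsets the log2 fold change was -0.12.

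Oaz2 (ENSMUSG00000040652, chromosome 9, 65668001 to 65690300, plus strand) had 41.8, 26.8 and 36.9 CPM in the control libraries, against 31.9 and 33.9 CPM in those labelled Ghr deletion, inside the control range. The log2 fold change of -0.10 (SE 0.24) became 0.05 without control 1. The balance of the antizymes was steady: Oaz1 stood at 3.76, 4.60 and 4.41 times the TPM of Oaz2 in the controls and at 4.13 and 4.28 times in the deletion-labelled libraries.

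Azin1 (ENSMUSG00000037458, chromosome 15, 38487427 to 38519266, minus strand) encodes antizyme inhibitor, a relative of ornithine decarboxylase that has lost the enzyme activity and binds antizyme. It had 165, 75.5 and 92.6 CPM across the controls, compared with 96.7 and 83.1 CPM in deletions 1 and 2. Control 1 stood above the other 4 libraries, which lay close together. The log2 fold change was -0.31 (SE 0.37), and without control 1 it was 0.10. Relative to Oaz1, Azin1 had a TPM ratio of 0.448, 0.253 and 0.215 in the controls and 0.315 and 0.243 in the deletion-labelled libraries, which overlapped. The ratio of Odc1 to Oaz1 overlapped too, at 0.761, 0.473 and 0.861 against 0.643 and 0.315.

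Among the genes of breakdown, Smox had the largest fold change of the 10. Smox (ENSMUSG00000027333, chromosome 2, 131491496 to 131525922, plus strand), which encodes the spermine oxidase that turns spermine directly into spermidine, had 21.0, 34.2 and 27.4 CPM in the controls. It had 8.46 and 13.4 CPM in the deletion-labelled libraries. Both deletion-labelled values were below every control, with means of 27.6 ± 6.58 CPM (SD, n = 3) for the controls and 10.9 ± 3.51 CPM (SD, n = 2) for the others. Its log2 fold change was -1.33 (SE 0.32, 95% confidence interval -2.13 to -0.54). By edgeR's quasi-likelihood test the p was 0.00644 before and 0.874 after adjustment over all genes, and 47 genes had a smaller p. DESeq2 gave an adjusted p of 0.0593, so neither tool called Smox.

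Smox had a similar fold change without the libraries that stood apart. Its log2 fold change was -1.32 without both controls 1 and 2, and between -1.04 and -1.70 when each library was left out in turn. Control 3 had 27.4 CPM of Smox, above both deletion-labelled libraries. Seminal vesicle markers made up 25.6% of the counts of control 3, against 14.6% and 22.2% in deletions 1 and 2. The 4 adipocyte markers were higher in both deletion-labelled libraries, but their sum was low, 3.56 and 1.89 CPM against 0 to 0.463 CPM in the controls, and all 4 were at 0 in control 1. The 4 basal epithelial markers summed to 101 to 102 CPM in the controls and to 98.9 and 83.8 CPM in deletions 1 and 2, and 2 of the 4 were lower in both. The part of these cells, and of the seminal vesicle RNA described above, in the Smox values was not tested. The mean transcript length of Smox varied 1.34-fold, from 1476 bases in control 3 to 1976 in control 2, and with effective lengths as offsets the log2 fold change was -1.35.

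Sat1 (ENSMUSG00000025283, chromosome X, 155213132 to 155216449, minus strand) encodes the spermidine/spermine acetyltransferase that starts the breakdown and export of polyamines. It had 57.3, 51.2 and 135 CPM in the control libraries, against 125 and 146 CPM in those labelled Ghr deletion. Controls 1 and 2 were low, and control 3 lay between the deletion-labelled libraries. The means were 81.3 ± 47.0 CPM (SD, n = 3) and 135 ± 14.7 CPM (SD, n = 2), and the log2 fold change was 0.74 (SE 0.46, 95% interval from -0.39 to 1.86) at an edgeR adjusted p of 0.874.

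For Sat1 the libraries that stood apart decided the value. Its log2 fold change was 1.31 without control 3, 0.54 without control 1, 0.49 without control 2 and 0.00 without both controls 1 and 2. Of the 8 seminal vesicle markers, 6 were higher in controls 1 and 2 than in the other 3 libraries, such as Svs1 with 32915, 22520 and 58.6 CPM across the controls, compared with 0.0454 and 7.90 CPM in deletions 1 and 2. The other seminal vesicle markers, Svs2 and Pate4, did not divide the libraries in this way, and neither did the share of counts of all 8. Of the 5 fibroblast markers, 4 were lower in controls 1 and 2 than in the other 3 libraries. So were 2 of the 4 smooth muscle markers, Acta2 and Myh11, but not Des and Cnn1. Also lower were 3 of 4 adipocyte, 2 of 4 skeletal muscle, 2 of 7 luminal and 1 of 4 basal markers. Higher in controls 1 and 2 were 4 of 6 prostate secretion, 3 of 5 immune, 2 of 4 urothelial, 1 luminal and 1 basal marker. No endothelial marker divided the libraries in this way. The part of these tissues in the Sat1 values was not tested, and fewer cells of a type and less RNA per cell cannot be told apart in these bulk samples.

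Paox (ENSMUSG00000025464, chromosome 7, 140115799 to 140137224, plus strand), the oxidase that acts on acetylated polyamines, had 9.87, 6.64 and 9.09 CPM across the controls, compared with 7.54 and 8.96 CPM in deletions 1 and 2. The deletion-labelled values were inside the control range, and the log2 fold change was -0.05 (SE 0.27, 95% confidence interval -0.71 to 0.62). It rested on 129 to 412 expected counts per library. The pseudogene Gm19680 matches Paox at 99.9% over 1358 bases, and its counts came to 25.3% of those of Paox in control 2 but 0% in deletion 2. With the counts of the copy added, the log2 fold change was -0.16.

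Set against each other within a library, some pairs of genes gave TPM ratios that did not overlap between the groups. The TPM of Sat1 was 5.00, 2.72 and 6.50 times that of Smox in the controls and 26.5 and 16.8 times in the deletion-labelled libraries. The TPM of Sat1 was 0.759, 1.25 and 1.48 times that of Odc1 in the controls and 2.27 and 4.93 times in the deletion-labelled libraries. Both ratios were higher in both deletion-labelled libraries than in each control, control 3 included. Paox to Smox gave 0.326, 0.106 and 0.176 in the controls and 0.561 and 0.348 in the deletion-labelled libraries. Of 9 ratios computed, chosen after the values were seen, these 3 were higher without overlap, Srm to Sms was lower, and 5 overlapped. The ratios to Smox hold a gene whose own values did not overlap, so they are not separate results. No rate of non-overlap was computed for ratios of other genes.

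**Figure D3:**
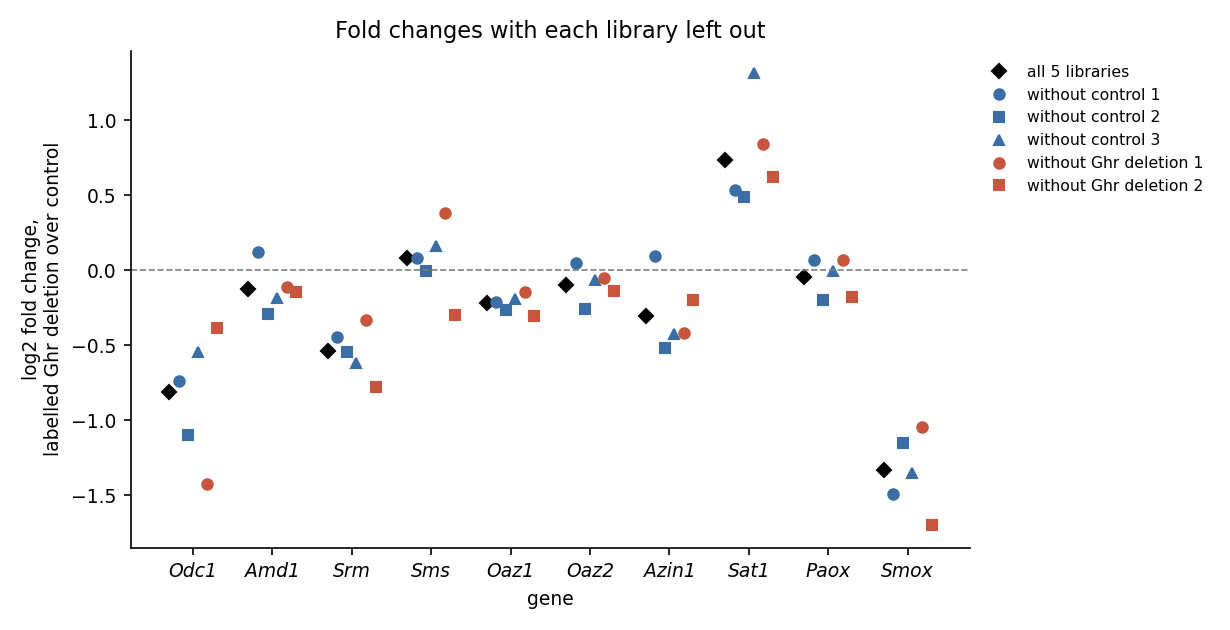
Log2 fold change of the libraries labelled Ghr deletion over the controls (vertical axis) for each of the 10 genes, with all 5 libraries (black) and with each library left out (blue for a control, red for a deletion-labelled library). Smox stays between -1.04 and -1.70, Sat1 reaches 1.31 without control 3, and Amd1, Oaz2, Azin1 and Paox cross 0 without control 1.

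Some counts were shared with pseudogenes. Listed near-identical copies, with over 95% identity across at least 200 bases, numbered 9 for Odc1, 6 for Amd1, 7 for Sms and 1 each for Oaz1, Oaz2, Sat1 and Paox, and 0 for Srm, Azin1 and Smox. The Odc1 copies held 2.40%, 10.7% and 2.01% as many counts as Odc1 in the controls and 3.66% and 13.3% in the deletion-labelled libraries. The copies of Sms came to at most 2.45%, and those of Oaz1, Oaz2 and Sat1 to at most 0.39%. With the counts of copies added, the log2 fold change of Odc1 was -0.77.

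The wider pathway, 39 further genes listed in 7 groups, also held no called gene. Of the 39, 33 were tested, 0 were called by edgeR or DESeq2, and 4 had an unadjusted p under 0.05 by edgeR, namely Mat2a, Ahcy, Atp13a2 and Dohh, against 4.26% of all tested genes. The groups did not overlap in 3 that were higher in the deletion-labelled libraries, Mat2a, Atp13a3 and Slc18b1, and in 5 that were lower, Arg1, Mat1a, Ahcy, Atp13a2 and Dohh. These are 9.09% and 15.2% of the 33, near the 10.8% and 12.5% of all tested genes. The median log2 fold change of the 33 was -0.10. Satl1, Agmat, Otc, Slc22a2, Sbpl and Mycn were too low to be tested.

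**Figure D4:**
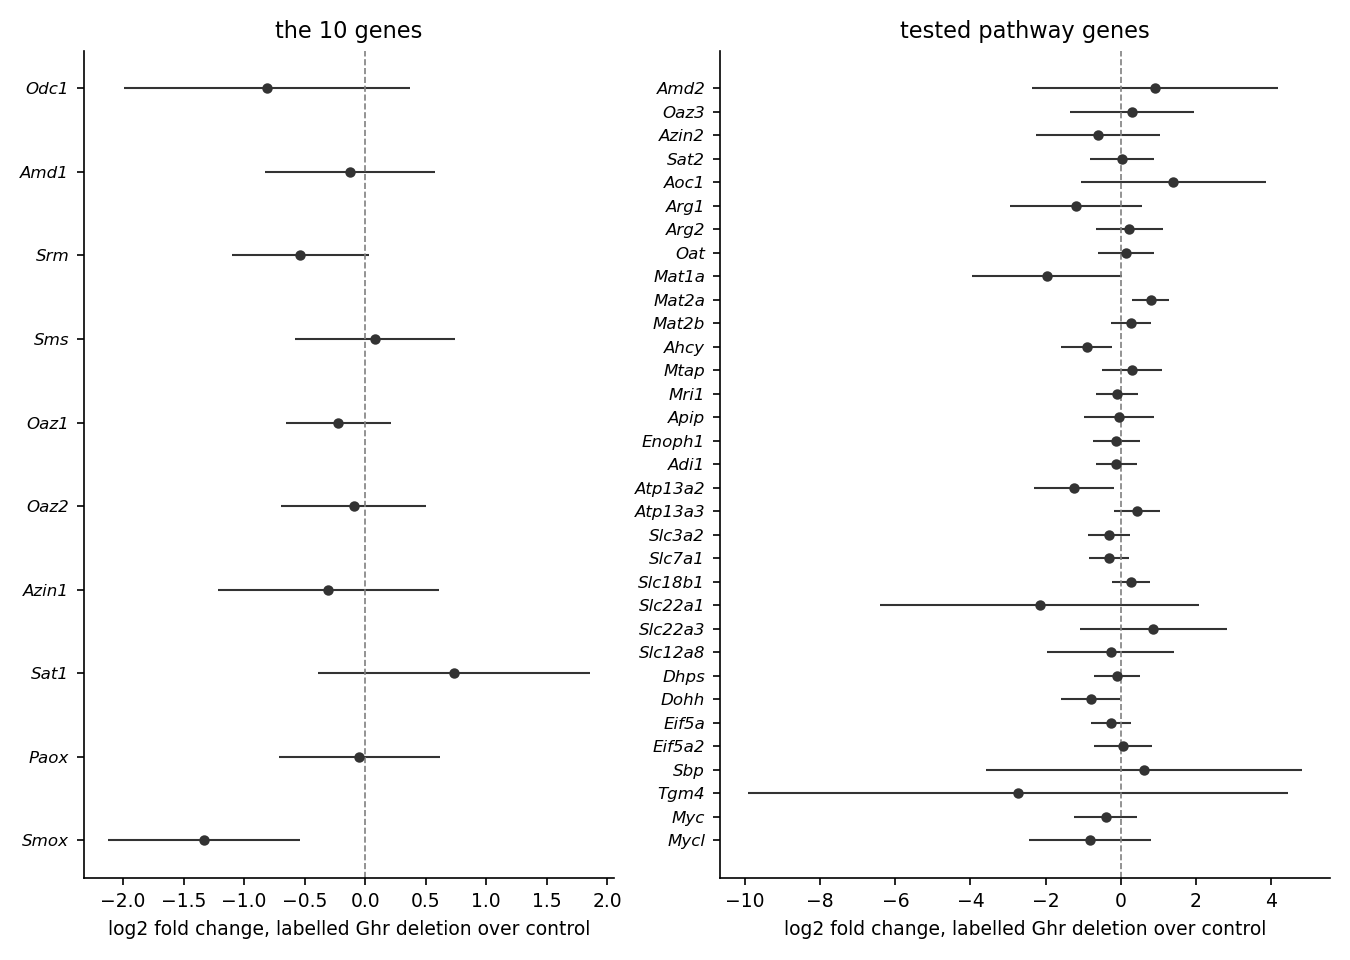
Log2 fold change of the libraries labelled Ghr deletion over the controls (horizontal axes, with different ranges) and its 95% confidence interval for the 10 polyamine genes (left) and the 33 tested pathway genes (right). Smox is the only gene on the left whose interval lies wholly on one side of 0.

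S-adenosylmethionine is the source of the group that Amd1 prepares for the synthases. Mat2a, the enzyme that makes it in most tissues, had 84.2, 66.2 and 84.0 CPM in the control libraries, against 141 and 131 CPM in those labelled Ghr deletion. Both were above every control, and the log2 fold change was 0.80 (SE 0.20, 95% interval from 0.30 to 1.3) at an edgeR adjusted p of 0.874 and 0.0638 by DESeq2. Without both controls 1 and 2 it was 0.70. Mat2b, the regulatory subunit, had a log2 fold change of 0.27 (SE 0.22).

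Ahcy, which hydrolyses the S-adenosylhomocysteine left by methylation, had 51.4, 31.3 and 34.3 CPM across the controls, compared with 19.9 and 21.8 CPM in deletions 1 and 2. It was lower in both, with a log2 fold change of -0.90 (SE 0.28) and an adjusted p of 0.874 by edgeR, and of -0.72 without both controls 1 and 2. The genes of the methionine salvage pathway, Mtap, Mri1, Apip, Enoph1 and Adi1, which recycle the by-product of the synthases, had log2 fold changes from -0.11 to 0.29, and their groups overlapped. Mat1a, the liver form of the synthetase, was at most 0.668 CPM.

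Among transporters, Atp13a2, which exports polyamines from lysosomes, had 28.2, 61.8 and 26.7 CPM in the control libraries, against 15.1 and 17.9 CPM in those labelled Ghr deletion. Its log2 fold change was -1.24 (SE 0.43), and it was -0.74 without control 2, the highest library. Its relative Atp13a3, which takes part in polyamine uptake, had 136, 88.6 and 126 CPM across the controls, compared with 160 and 158 CPM in deletions 1 and 2, with a log2 fold change of 0.44 (SE 0.25). Atp13a2 was thus lower and Atp13a3 higher in both deletion-labelled libraries, and neither was called, with an adjusted p of 0.874 by edgeR for each. Slc3a2 and Slc7a1, parts of carriers for cationic amino acids, each had a log2 fold change of -0.31, with SE 0.23 and 0.22.

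Spermidine is also the source of hypusine, a modified lysine in the translation factor eIF5A. Dohh, the hydroxylase that completes it, had 4.89, 7.41 and 5.54 CPM in the control libraries, against 2.99 and 3.84 CPM in those labelled Ghr deletion, with a log2 fold change of -0.80 (SE 0.32) and an adjusted p of 0.874 by edgeR. With effective lengths as offsets that value was -0.44. Dhps, the synthase that starts the modification, and Eif5a itself overlapped between groups, at log2 fold changes of -0.10 (SE 0.25) and -0.25 (SE 0.22).

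Ornithine, the substrate of ornithine decarboxylase, comes from arginase. The log2 fold change of Arg2 was 0.23 (SE 0.36), and Arg1 was at most 0.616 CPM. Oat, which exchanges ornithine with proline and glutamate metabolism, had means of 140 ± 41.9 CPM (SD, n = 3) in the controls and 155 ± 3.45 CPM (SD, n = 2) in deletions 1 and 2, with overlapping groups. Myc, a transcription factor known to activate Odc1, stood at a log2 fold change of -0.40 (SE 0.35), and Mycl at -0.82 (SE 0.66), both with overlapping groups.

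Other enzymes were low or uneven. Aoc1, the diamine oxidase that degrades putrescine, had 0.617, 0.205 and 2.47 CPM in the control libraries, against 1.5 and 4.54 CPM in those labelled Ghr deletion. Azin2, a second antizyme inhibitor gene, had 0.864 to 3.03 CPM across the controls, compared with 1.18 and 0.959 CPM in deletions 1 and 2. Sbp, the spermine-binding protein of prostate secretion, was near absent, with 1, 26 and 0 expected counts across the controls and 10 and 46 in deletions 1 and 2. Tgm4, the prostate transglutaminase that couples polyamines to secreted proteins, had 17.9, 1604 and 2.93 CPM in the control libraries, against 0.753 and 162 CPM in those labelled Ghr deletion. Tgm4 was highest in replicate 2 of each group, and its log2 fold change of -2.73 (SE 2.92) became 3.00 without control 2.

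**Figure D5:**
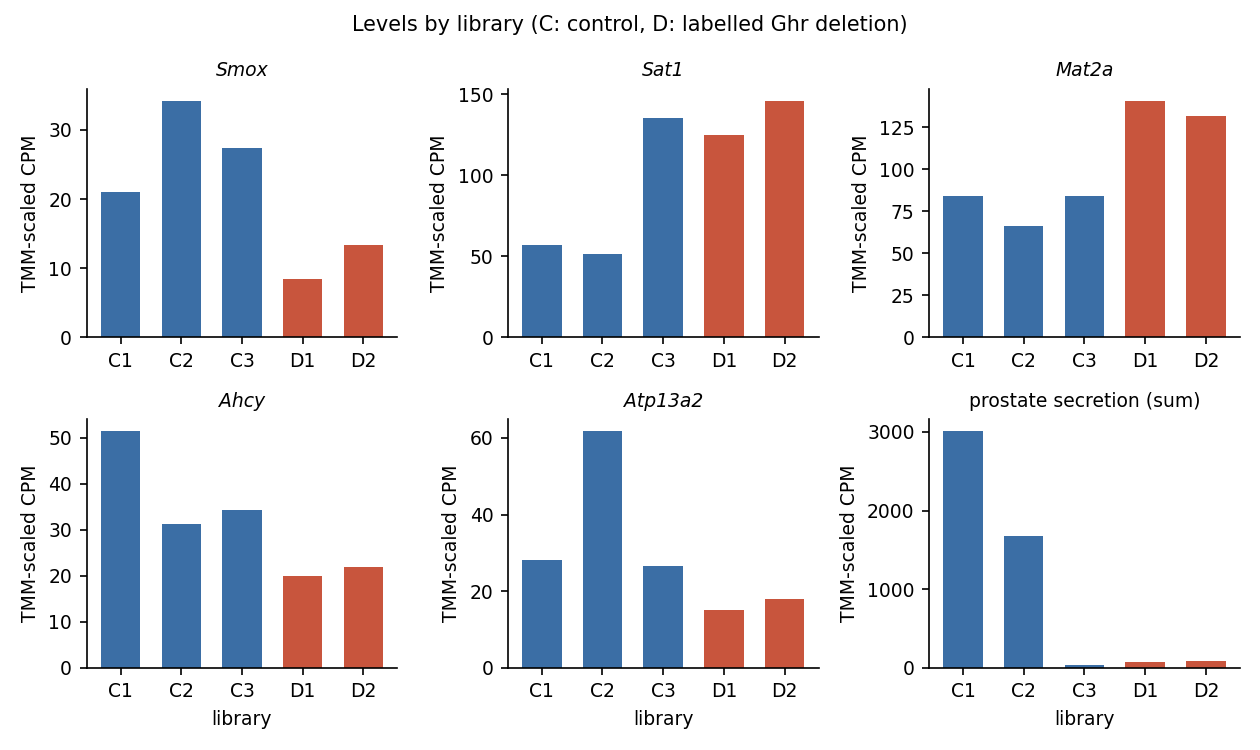
TMM-scaled CPM (vertical axes from 0) by library for Smox, Sat1, Mat2a, Ahcy, Atp13a2 and the sum of the 6 prostate secretion markers, with controls C1 to C3 in blue and libraries labelled Ghr deletion D1 and D2 in red. Smox, Ahcy and Atp13a2 are lower and Mat2a higher in both D libraries than in every control. Sat1 and the sum of the secretion markers, most of it Spink1 in C1 and C2, place C3 with the D libraries.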

How the data were processed

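Libraries were made with the TruSeq Stranded Total RNA kit, per the labels' protocols. RSEM 1.3.0, STAR 2.5.3a, bcl2fastq 2.20.422 and GRCm38 appear in the submitters' processing notes. The strand setting and annotation release were not given in the sources used here. Gene tables deposited by the authors hold expected counts, in which RSEM shares a read among the genes it fits, and also TPM and transcript lengths.

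Expected counts were rounded, passed through filterByExpr and TMM-scaled. In R 4.3.3, edgeR 4.0.16 gave quasi-likelihood tests of the group term alone, adjusted by Benjamini-Hochberg over all tested genes at 0.05. This step was also run on simulated counts with planted changes. Those were drawn for all libraries from a single mean profile, so they do not test it under the differences in make-up between these libraries. Standard errors and 95% intervals come from the F statistic and its degrees of freedom. P-values measure the spread between these mice, which the labels call biological replicates. Alternatives were DESeq2 1.42.0, limma 3.58.1 on counts and on log2 TPM, other scalings and filters, libraries left out, and the replicate number as a block. Symbols matched 99.5% of identifiers, and coordinates and sequences are those of GENCODE M21. Copies were found with BLAST+ 2.17.0. The members, the lists and the rule for named genes (all 10 members, Ghr, 3 fixed genes and the 2 tested genes with the smallest p of each pathway list) were chosen with earlier results of these data known. Other pathway genes were named after their values were seen. The value of 1 gene of the luminal marker list is not reported here.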

Additional observations from a re-analysis of the deposited data

How the results depend on the processing

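Of 489 values of single genes under 19 other settings, 451 kept direction and side of the threshold, 31 reversed and 7 became calls in the same direction. Among the 31 were Amd2 and Sbp on log2(TPM + 1), which were called there as higher, before the shift of all genes was removed. Their signs reversed only after its removal, and no test was made of the values after removal. Odc1, Srm, Sat1 and Smox never reversed. The number of genes called, 0 in the main test, was 81 by DESeq2, 2 when low counts were kept, 2294 on log2(TPM + 1), 733 on log2(TPM + 0.1), and 0 to 48 with 1 library left out, the 48 without control 3. On the TPM scales 4 and 3 pathway genes were called (Aoc1, Slc22a3 and Sbp on both, and Amd2 on the first), before removal of the shift of all genes, which was 0.87 and 1.33. That shift is the median of all genes, subtracted alike from genes of every level. After it, log2(TPM + 1) gave 0.46 for Amd1, 0.46 for Oaz1, 0.38 for Oaz2, 0.32 for Azin1, 0.39 for Eif5a, -0.30 for Amd2 and -0.20 for Sbp. With the smaller pseudocount, log2(TPM + 0.1) gave 0.056 for Amd1, 0.029 for Oaz1, 0.031 for Oaz2, -0.050 for Azin1, -0.046 for Eif5a, 0.28 for Amd2 and 0.58 for Sbp. The values after subtraction thus depended on the pseudocount. Leaving out 1 library gave -0.29 to 0.12 for Amd1, -0.30 to 0.38 for Sms, -0.26 to 0.046 for Oaz2, -0.52 to 0.095 for Azin1 and -0.20 to 0.069 for Paox. For other genes the ranges were -1.51 to 3.04 for Amd2, -0.27 to 0.60 for Arg2, -0.89 to 0.20 for Azin2, -0.20 to 0.88 for Ghr, -1.19 to 0.041 for Mycl, -0.98 to 5.04 for Sbp and -9.48 to 3.00 for Tgm4. Without both controls 1 and 2 the values were -0.078 for Sms, -0.39 for Amd2, 0.34 for Mycl, 0.11 for Azin2 and 4.79 for Tgm4. In fits that leave 1 library in a group, that library is assumed to vary like the others. With the replicate number as a block, 1126 genes, 2 of the 10 members (Sat1 at 1.32 and Smox at -1.33, adjusted p of 0.0150 and 0.0165 by edgeR) and 3 pathway genes (Atp13a2, Slc22a3 and Tgm4) were called, and Paox gave 0.023. That fit keeps 1 residual degree of freedom and only 2 pairs share a number, and nothing in the labels says that a number marks a shared source. Replicate 3 is a control only, so control 3 does not inform the group term of that fit. Without control 3 and without the block, Sat1 was at 1.31. Deviations from the group means correlated at 0.28 for pair 1 and 0.30 for pair 2 across genes. The deviations of the 2 deletion-labelled libraries are exact opposites, so the swapped pairs gave -0.28 and -0.30 by construction. These correlations are therefore not separate evidence for pairing. The causes of these differences between settings were not tested. The biological coefficient of variation was 42.7%, and the lowest member, Paox, had 129 counts or more in each library.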
